A study of Mus musculus with 14 samples.

Results

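The genes described here encode the integrin subunits and the laminin chains, measured by bulk RNA sequencing in mouse small cell lung cancer cell lines. They are all rows of the count table whose symbol names a numbered or lettered integrin subunit or a laminin chain, 38 genes of 32926. They comprise 18 integrin alpha subunits, 9 integrin beta subunits and 11 laminin chains. Itgbl1, which shares the letters but is no subunit, was not counted.

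The Non-NE group (3 libraries) and the NE group (3 libraries) are non-neuroendocrine and neuroendocrine lines from lung tumours of adult mice carrying CGRPCreER/+, Rbf/f and P53f/f, of mixed strain and injected with TM, and were grown in Hites medium. These floxed Rb and P53 alleles with the CGRPCreER driver are shared by all groups of the series. In the genotype tags the P53 allele counts up by 1 from library to library after NE replicate 1, whereas the source text gives P53f/f throughout. The YAP5SA group comes from the same alleles with Rosa26rtTA and Tet-onYAP5SA, a tetracycline-inducible, constitutively active mutant of the transcription co-activator YAP, sampled at day 0, day 3, day 7 and day 21 (2 libraries each). The text of day 0 replicate 1 names neither Rosa26rtTA nor Tet-onYAP5SA, and no inducing agent is named. The driver limits Cre to cells that make CGRP, in the lung the neuroendocrine cells. How many mice, tumours or clones gave the lines is not given in the sources used here, so the p-values measure the spread between these libraries, which may be technical.

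Integrins are receptors for the extracellular matrix, each made of an alpha and a beta subunit, and the alpha subunit largely sets the ligand. Laminins are trimers of an alpha, a beta and a gamma chain and are the main glycoproteins of basement membranes. Trimers with Lama3 and Lamb3 anchor epithelia by way of alpha6 beta4 and alpha3 beta1. Trimers with Lama5 and Lamc1 are widespread in basement membranes of the lung, and those with Lama4 are best known from vessels and mesenchyme. YAP acts through TEAD transcription factors, and matrix adhesion through integrins is among the signals that act on YAP.

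Library totals ranged from 6730816 to 10659524 counts. Levels are given as CPM, counts scaled to a common library size by TMM over the 14 libraries. Yap1 itself had 135, 257 and 226 CPM in Non-NE libraries, against 19.2, 8.2 and 11.6 CPM in NE libraries, and 7.87 and 7.13 CPM at day 0, 1233 and 1063 CPM at day 3, 734 and 793 CPM at day 7 and 207 and 219 CPM at day 21. All later days thus stood above day 0 in Yap1, with day 3 highest, and Non-NE stood above NE. NE replicate 2 exceeded day 0 replicate 1 in 0 of 32926 rows, held 85.7% of its total and scattered around it by 1.025 times sampling noise over 11829 genes, as a random subset of the same reads would. NE and day 0 are therefore not independent. In chi-square per gene, where sampling noise gives 1, day 0 replicates 1 and 2 differed by 1.71. By the same measure NE replicate 1 differed from NE replicate 2 by 41.87 and from NE replicate 3 by 58.85. To which of the 2 groups the shared reads belong was not tested. Member calls numbered 143, among them those of a member not reported here. Of them, 5 ended and 6 others arose when NE replicate 2 was left out. When day 0 replicate 1 was left out, 12 ended and 0 arose. The 8 neuroendocrine markers summed to 58.8 to 418 CPM in Non-NE libraries, against 2851 to 4113 CPM in NE libraries, with Calca at 0 in both groups and Scg3 at 0 in Non-NE. At day 21 they summed to 712 to 723 CPM, against 3961 to 4174 CPM at day 0. Among the 7 tested, 6 were called lower and Ncam1 higher, both in Non-NE against NE lines and at day 21 against day 0. The Ncam1 calls ended under some alternatives, that at day 21 with all 14 libraries in the fit. The 6 fibroblast markers summed to 1412 to 7776 CPM in Non-NE libraries with Thy1 at 0, against 1.74 to 6.89 CPM in NE libraries with Lum at 0. Their sum was 42.7 to 47.6 CPM at day 21, against 5.92 to 6.37 CPM at day 0 with Lum and Col3a1 at 0. The 5 alveolar type I markers summed to 12.1 to 12.7 CPM at day 0 with Clic5 at 0, 960 to 1280.3 CPM at day 3, 5312 to 5789 CPM at day 7 and 3656 to 4070 CPM at day 21. They summed to 24.2 to 146 CPM in Non-NE libraries, against 1.06 to 11.9 CPM in NE libraries. The 4 epithelial markers summed to 4.96 to 31.3 CPM in Non-NE libraries, against 2123 to 2975 CPM in NE libraries. Their sum at day 21 was 3012 to 3088 CPM, against 2977 to 3079 CPM at day 0, with Cdh1 called higher and Epcam lower. The part of these markers in the results that follow was not tested.

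Promoter sequence is shown for Lamb3, Itgb6 and Itga3, members that were higher at every later YAP5SA day, and for the members that hold a TEAD motif, since TEAD factors carry YAP to DNA. RefSeq (GRCm38.p6) had windows for 24 of the 38 genes. For Lamb3, Itgb6 and Itga3 alike it gives windows at a pair of starts. The one at the upstream start is shown, and for Lamb3 both starts lie inside the annotated gene, downstream of its first base. The bases in front of that start that lie in no annotated exon were, 5′ to 3′ on the gene's strand:
Lamb3, chr1:193301744-193301992, plus strand: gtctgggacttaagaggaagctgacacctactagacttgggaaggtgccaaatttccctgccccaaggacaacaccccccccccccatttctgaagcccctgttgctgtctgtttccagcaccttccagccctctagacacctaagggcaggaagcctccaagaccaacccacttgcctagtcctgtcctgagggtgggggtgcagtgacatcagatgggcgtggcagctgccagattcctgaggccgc
Itgb6, chr2:60722644-60722853, minus strand: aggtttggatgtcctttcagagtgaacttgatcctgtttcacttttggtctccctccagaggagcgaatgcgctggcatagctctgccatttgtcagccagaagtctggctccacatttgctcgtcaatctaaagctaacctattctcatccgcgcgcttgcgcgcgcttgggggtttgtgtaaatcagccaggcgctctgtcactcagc
Itga3, chr11:95076802-95076964, minus strand: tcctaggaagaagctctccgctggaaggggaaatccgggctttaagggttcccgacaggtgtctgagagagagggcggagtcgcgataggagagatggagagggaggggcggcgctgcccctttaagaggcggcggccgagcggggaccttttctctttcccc
The TEAD motif GGAATG or its reverse complement CATTCC was searched in the 250 bases in front of each start. It was present in 3 of the 24 members (12.5%) and in 3880 of the 27025 genes with a window (14.4%). The 30 bases around it, with the motif in capitals and all on the plus strand, were:
Lamb3, chr1:193302064-193302093: gaggggaccccaCATTCCcagggagctctc
Itgb1, chr8:128685624-128685653: aggcgcggctgacgcggcgcggaGGAATGc
Itga10, chr3:96645497-96645526: caccaccactccCATTCCatccaactttat
The Lamb3 motif lay 167 bases in front of the other of its starts, outside the stretch shown. The AP-1 motif TGANTCA, which reads the same on both strands, was in 1 of 24 members (4.17%), Itgax, and in 7.82% of all genes; no member held both motifs. A share near that of all genes is no feature of the members, and a match is not a binding site.

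Scaled to the library total alone, counts assigned to the 38 genes summed to 2759.8 to 7002 CPM in Non-NE libraries, against 1064 to 1294 CPM in NE libraries. Over the YAP5SA days they summed to 1259 to 1262 CPM at day 0, 2708 to 2815 at day 3, 5272 to 5319 at day 7 and 6493 to 7115 at day 21. Every Non-NE library was thus above every NE library, and each day above the one before it. Most of the counts in Non-NE lines came from Itgb1, Itga5, Lamc1, Itga3, Itgb5 and Itgav, and those at day 21 came to a large part from Itga3, Itgb1, Lamc1, Lama5 and Lamb3. As these are bulk libraries, a change in the share of cells that make a transcript and a change in the level per cell cannot be told apart in any comparison given here. Of the genes that reached a mean of 20 CPM in some group, 18 are described one by one.

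**Figure D1:**
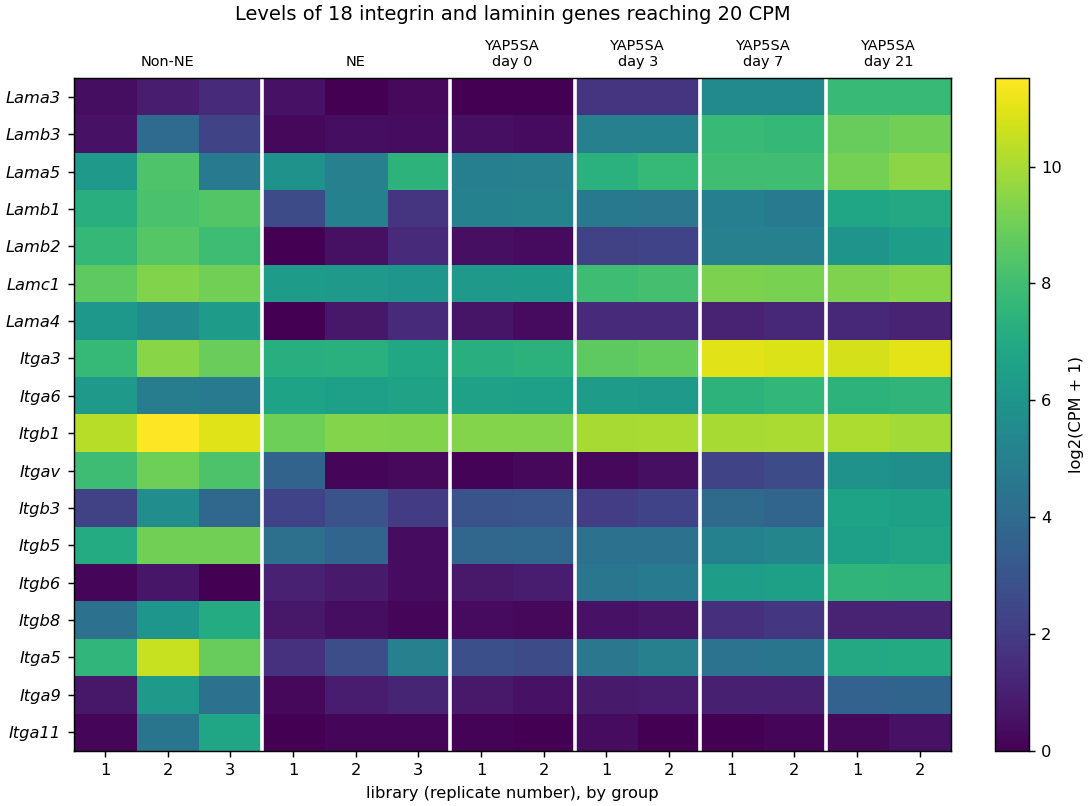
Level of 18 genes with a group mean of at least 20 CPM (rows) in each of the 14 libraries (columns, by group and replicate), as log2(CPM + 1) in colour. Lama3, Lamb3 and Itgb6 are at or near 0 at day 0 and high at day 21 but low in Non-NE libraries, while Lama4 and Itgb8 are high in Non-NE libraries alone.

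Among the laminins, Lama3, the alpha chain of the anchoring trimer, had 0.331, 0.855 and 1.7 CPM in Non-NE libraries, against 0.483, 0 and 0.213 CPM in NE libraries. Over the YAP5SA days it had 0 and 0 CPM at day 0, 2.43 and 2.3 CPM at day 3, 44.6 and 43 CPM at day 7 and 222 and 219.6 CPM at day 21. It was thus near 0 in every library of both line groups and at 0 at day 0, and no library of day 3, 7 or 21 overlapped with day 0. Against the 3 counts that a group at 0 allows, it was at least 16.9-fold higher at day 3, at least 314-fold at day 7 and at least 1581-fold at day 21 (edgeR quasi-likelihood test, adjusted p = 2.80e-08, adjusted p = 1.29e-19 and adjusted p = 8.47e-24). It had a 5.07-fold higher level at day 21 than at day 7 (log2 change 2.34, SE 0.082, adjusted p = 7.86e-17).

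Lamb3, the beta chain of the same trimer, had 0.496, 15.3 and 4.14 CPM in Non-NE libraries, against 0.193, 0.328 and 0.319 CPM in NE libraries. At days 0, 3, 7 and 21 it had 0.375 and 0.278 CPM at day 0, 31 and 32 CPM at day 3, 223 and 205 CPM at day 7 and 455 and 526 CPM at day 21. Non-NE replicate 2 was the highest line library, the NE libraries were all under 1 CPM, and the gene did not pass the count filter of the line comparison. It was 92.5-fold higher at day 3 (log2 change 6.53, SE 0.24, adjusted p = 3.70e-17), 637-fold at day 7 (adjusted p = 1.44e-23) and 1472-fold at day 21 (log2 change 10.52, SE 0.17, adjusted p = 6.31e-25), each against day 0. The gene spans chr1:193207699-193343878 and overlaps Hsd11b1 and G0s2 on the opposite strand, which averaged 13.4 and 0.674 CPM at day 21, and how strand was treated in counting is not given in the sources used here.

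Lamc1, a widespread gamma chain, had 398, 652 and 528 CPM in Non-NE libraries, against 78.5, 74.5 and 64.8 CPM in NE libraries, and 72.6 and 76.4 CPM at day 0, 247 and 274 CPM at day 3, 599.8 and 594 CPM at day 7 and 630.3 and 713 CPM at day 21. It was high in both settings, with no overlap between Non-NE and NE or between any later day and day 0. Lamc1 was 7.04-fold higher in Non-NE than in NE lines (log2 change 2.81, SE 0.24, adjusted p = 2.26e-04) and 9.15-fold higher at day 21 than at day 0 (log2 change 3.19, SE 0.087, adjusted p = 8.05e-21).

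Lama5, the alpha chain of the widespread lung laminins, had 71.6, 327 and 26.7 CPM in Non-NE libraries, against 58.5, 31.4 and 173 CPM in NE libraries. Over the days it had 30.6 and 31 CPM at day 0, 161 and 209.5 CPM at day 3, 253 and 252 CPM at day 7 and 558 and 729 CPM at day 21. The line libraries overlapped, each group having 1 library far above the others, and no difference was called (log2 change 0.65, SE 0.97, adjusted p = 0.619). The sign turned without Non-NE replicate 2 (log2 change -0.88). In YAP5SA cells Lama5 was 5.97-fold higher at day 3 (adjusted p = 9.16e-12), 8.28-fold at day 7 (adjusted p = 1.68e-13) and 21.2-fold at day 21 (adjusted p = 6.20e-16).

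Lama4, the alpha chain of vascular and mesenchymal laminins, had 69.6, 46.3 and 78.5 CPM in Non-NE libraries, against 0, 0.656 and 1.6 CPM in NE libraries. In YAP5SA cells it had 0.562 and 0.278 CPM at day 0, 1.55 and 1.56 CPM at day 3, 1.22 and 1.42 CPM at day 7 and 1.43 and 1.16 CPM at day 21. The Non-NE libraries were all far above the rest and no other group passed 2 CPM in any library. It was 83.4-fold higher in Non-NE lines (log2 change 6.38, SE 0.93, adjusted p = 0.00203, or 7.60 on the log2 scale without NE replicate 3). The small rise over day 0 passed at day 21 (log2 change 1.62, SE 0.51, adjusted p = 0.00644) but not without day 0 replicate 2 (adjusted p = 0.0897) or day 21 replicate 1 (adjusted p = 0.0501).

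Lamb2 and Lamb1 are the beta chains that join Lama4 and Lama5. Lamb2 had 205, 360.2 and 242 CPM in Non-NE libraries, against 0, 0.437 and 1.7 CPM in NE libraries, and 0.375 and 0.278 CPM at day 0, 3.79 and 3.95 CPM at day 3, 31.7 and 31.4 CPM at day 7 and 61.3 and 84.6 CPM at day 21. Lamb1 had 154, 298 and 339.8 CPM in Non-NE libraries, against 5.31, 32.3 and 2.45 CPM in NE libraries, and 32.8 and 34 CPM at day 0, 24.3 and 22.9 CPM at day 3, 29.9 and 25.4 CPM at day 7 and 111 and 121 CPM at day 21. Both were high in every Non-NE library and neither overlapped with NE, but in YAP5SA cells Lamb2 climbed from day 3 onward while Lamb1 was raised at day 21 alone. Lamb2 was 365-fold higher in Non-NE lines (log2 change 8.51, SE 0.89, adjusted p = 5.66e-04), with log2 changes of 7.92 without NE replicate 1 and 10.21 without NE replicate 3, and 219-fold higher at day 21 than at day 0 (adjusted p = 2.18e-19). Lamb1 was 19.2-fold higher in Non-NE lines (log2 change 4.26, SE 0.98, adjusted p = 0.0127), with a log2 change of 6.06 without NE replicate 2. Against day 0 it was lower at day 3 (log2 change -0.51, SE 0.11, adjusted p = 3.08e-04) and at day 7 (log2 change -0.26, SE 0.11, adjusted p = 0.0328), the day 7 call ending without either day 0 library (adjusted p = 0.0729 and 0.141), without day 7 replicate 2 (adjusted p = 0.357) and with DESeq2 (adjusted p = 0.077). At day 21 it was 3.53-fold higher than at day 0 (adjusted p = 3.84e-15). Each of these Lamb1 calls against day 0 ended with all 14 libraries in the fit.

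Lama1, Lamc3 and Lama2 stayed low. Lama1, an embryonic alpha chain, had 4.79, 9.4 and 12.5 CPM in Non-NE libraries, against 0, 0.109 and 0 CPM in NE libraries, a ratio of counts of 274 (95% counting interval 48.6 to 10851) (adjusted p = 0.00111), where the NE side rests on 1 count in NE replicate 2, and was at 0 in every library from day 3 on. Lamc3 had 0 CPM in NE and day 0 libraries and 6.71 and 4.88 CPM at day 7, at least 41.5-fold above day 0 (adjusted p = 1.43e-10). It was lower at day 21, at 1.91 and 2.81 CPM (log2 change -1.29, SE 0.27, adjusted p = 3.87e-04, against day 7). Lama2, the muscle alpha chain, had 0.826, 0 and 4.56 CPM in Non-NE libraries, against 0.0965, 0 and 0.106 CPM in NE libraries, and was at or under 0.0919 CPM in YAP5SA libraries.

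**Figure D2:**
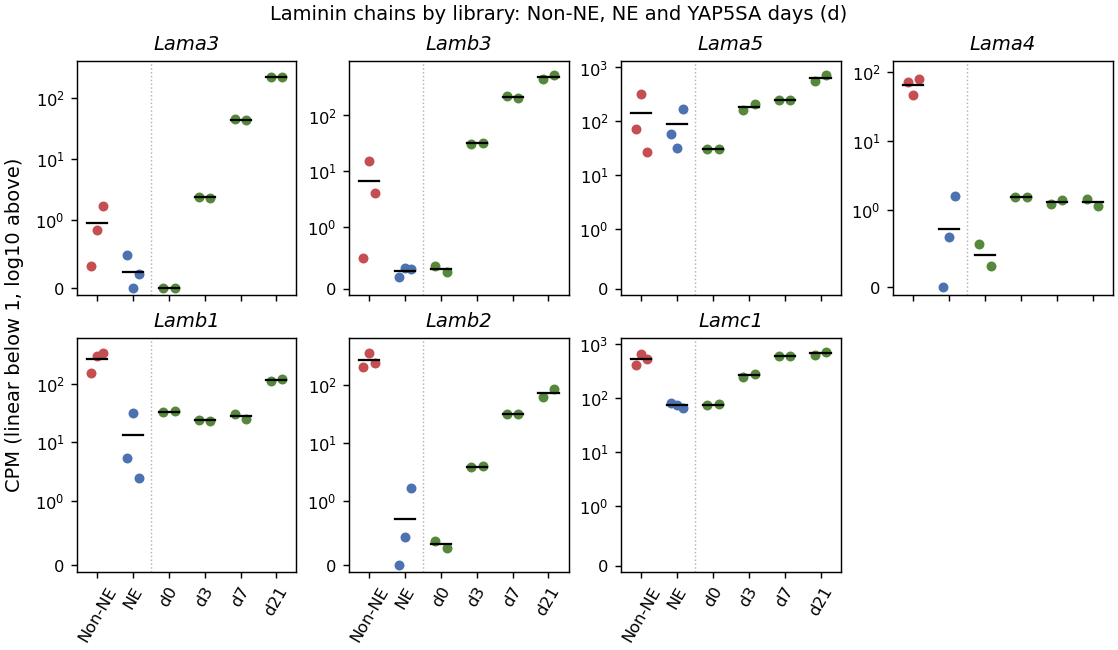
Level of 7 laminin chains in every library (dots, CPM on an axis that is linear below 1 and logarithmic above) for Non-NE lines, NE lines and the 4 YAP5SA days (d), with bars at group means. Lama3 and Lamb3 climb over the days and stay low in Non-NE lines, Lama4 is high in Non-NE lines alone, and Lamb2 and Lamc1 are high in both.

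Among the receptors of laminin, Itga3, whose product pairs with beta1, had 207, 701 and 468 CPM in Non-NE libraries, against 150.1, 155 and 119 CPM in NE libraries. By day it had 155 and 166 CPM at day 0, 408 and 439 CPM at day 3, 2069 and 1947 CPM at day 7 and 1759.7 and 2137 CPM at day 21. Each step up to day 7 stood clear of the one before, day 7 and day 21 overlapped, and the Non-NE libraries, though all above NE, reached at most 701 CPM. Itga3 was 2.62-fold higher at day 3 (adjusted p = 3.93e-12), 12.6-fold at day 7 (log2 change 3.66, SE 0.10, adjusted p = 7.94e-21) and 12.3-fold at day 21 (adjusted p = 8.58e-21) than at day 0. In Non-NE lines it was 3.15-fold higher than in NE lines (log2 change 1.66, SE 0.43, adjusted p = 0.0199), a call that ended without NE replicate 1, NE replicate 3 or Non-NE replicate 3 (adjusted p = 0.0556, 0.0599 and 0.0516).

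Itga6, whose product pairs with beta1 or beta4, had 74.5, 27.6 and 26.6 CPM in Non-NE libraries, against 102, 90.4 and 97.2 CPM in NE libraries. It had 93.8 and 90.0 CPM at day 0, 79.1 and 74.8 CPM at day 3, 176 and 194 CPM at day 7 and 176 and 184 CPM at day 21. Non-NE libraries lay below every NE library, and the later days lay above day 0 from day 7 on. The gene was lower in Non-NE lines (log2 change -1.23, SE 0.41, adjusted p = 0.0499), but 8 of 14 alternatives ended that call, among them each NE library left out (adjusted p = 0.138, 0.116 and 0.119) and Non-NE replicates 2 and 3 (adjusted p = 0.13 and 0.13), and without Non-NE replicate 1 the log2 change was -1.86. It was lower at day 3 than at day 0 (log2 change -0.27, SE 0.08, adjusted p = 0.00728), a call that was lost without day 0 replicate 1 or day 3 replicate 2 (adjusted p = 0.0854 and 0.0735). It was 1.99-fold higher at day 21 than at day 0 (log2 change 0.99, SE 0.076, adjusted p = 1.45e-11). Each call of Itga6 against day 0 ended with all 14 libraries in the fit.

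Itgb1, the beta subunit shared by most matrix receptors, was the most abundant member per kilobase in every group but day 7 and day 21. It had 1222, 2926 and 1975 CPM in Non-NE libraries, against 498, 659 and 653 CPM in NE libraries, and 661 and 666 CPM at day 0, 1027 and 1058 CPM at day 3, 1032 and 1065 CPM at day 7 and 1095 and 982 CPM at day 21. All Non-NE libraries exceeded all NE libraries, and all later days exceeded day 0. It was 3.28-fold higher in Non-NE lines (log2 change 1.72, SE 0.35, adjusted p = 0.00783) and 1.56-fold higher at day 3 (log2 change 0.64, SE 0.079, adjusted p = 2.14e-07). At day 7 and day 21 it was also called higher than at day 0. Each of these calls against day 0 ended with all 14 libraries in the fit. The steps from day 3 to day 7 and from day 7 to day 21 were not called. Between day 7 and day 3 the log2 change was 0.03, and -0.11 with scaling by library totals.

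Itgb4, which pairs with alpha6 in hemidesmosomes, stayed below 20 CPM. It had 0.496, 0.611 and 0.637 CPM in Non-NE libraries, against 0.869, 0.328 and 1.17 CPM in NE libraries, and 0.375 and 0.463 CPM at day 0, 1.75 and 2.39 CPM at day 3, 4.27 and 3.46 CPM at day 7 and 11.8 and 15.2 CPM at day 21. The YAP5SA values rose at each sampled day and the line groups overlapped. Itgb4 was 4.81-fold higher at day 3 (adjusted p = 2.19e-04) and 31.8-fold at day 21 (log2 change 4.99, SE 0.31, adjusted p = 1.93e-13) than at day 0. Its rise at day 7 over day 3 (adjusted p = 0.00874) was lost without day 3 replicate 1 or day 7 replicate 1 (adjusted p = 0.0845 and 0.0998). Itga7, a laminin receptor of muscle, had 0.992, 5.25 and 4.35 CPM in Non-NE libraries, against 0.193, 1.86 and 0 CPM in NE libraries, and 1.87 and 1.85 CPM at day 0, 0.68 and 0.643 CPM at day 3, 0.813 and 0.508 CPM at day 7 and 2.67 and 2.62 CPM at day 21. It was lower at day 3 and day 7 than at day 0 (adjusted p = 0.00419 and adjusted p = 0.00338, the day 7 value 0.0568 without day 7 replicate 2) and 3.97-fold higher at day 21 than at day 7 (adjusted p = 1.73e-04). Each of these Itga7 calls ended with all 14 libraries in the fit.

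**Figure D3:**
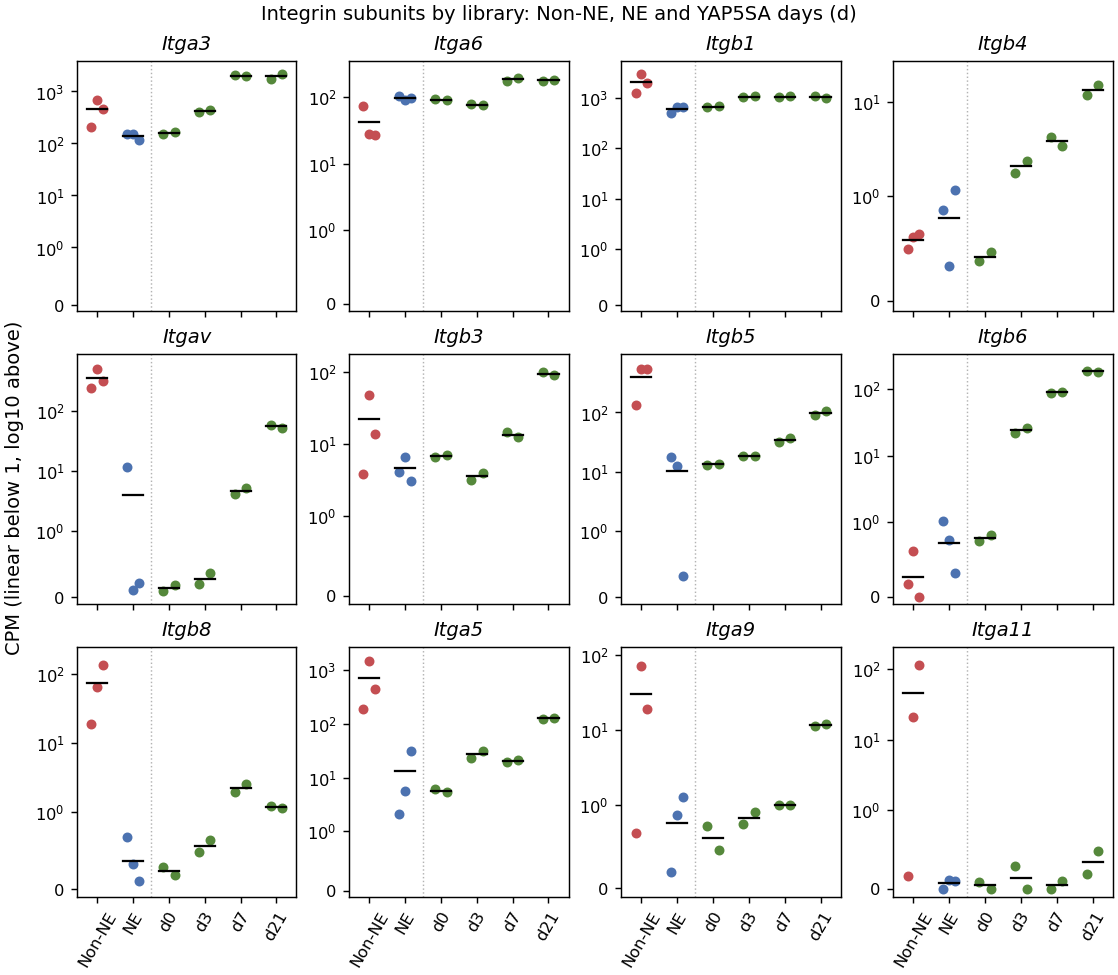
Level of 12 integrin subunits in every library (dots, CPM on an axis that is linear below 1 and logarithmic above) for Non-NE lines, NE lines and the 4 YAP5SA days (d), with bars at group means. Itgb6 climbs from under 1 CPM at day 0 to over 170 CPM at day 21 and stays under 1.1 CPM in the lines, whereas Itgb8 is high in Non-NE libraries and at or under 2.54 CPM over the days.

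The alphav subunit, Itgav, binds ligands with an RGD motif and pairs with beta1, beta3, beta5, beta6 and beta8. It had 248, 505 and 315 CPM in Non-NE libraries, against 11.6, 0.109 and 0.213 CPM in NE libraries. Over the days it had 0.0937 and 0.185 CPM at day 0, 0.194 and 0.368 CPM at day 3, 4.17 and 5.18 CPM at day 7 and 59.8 and 52.8 CPM at day 21. All Non-NE libraries were far above NE, where replicate 1 stood above the other libraries, and in YAP5SA cells it appeared at day 7 and climbed further at day 21. Itgav was 85.8-fold higher in Non-NE lines (log2 change 6.42, SE 1.44, adjusted p = 0.0115), with a log2 change of 10.95 without NE replicate 1. Day 0 held 3 counts or fewer, so the ratio of counts was 33.5 (95% counting interval 11.1 to 165) at day 7 (adjusted p = 6.44e-10) and 403 (95% counting interval 138 to 1958) at day 21 (adjusted p = 1.38e-19), and at day 3 no difference was called (adjusted p = 0.413).

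The partners of alphav differed among themselves. Itgb6, an epithelial subunit whose alphav heterodimer activates latent TGF-beta, had 0.165, 0.611 and 0 CPM in Non-NE libraries, against 1.06, 0.766 and 0.319 CPM in NE libraries. It had 0.75 and 0.833 CPM at day 0, 22.2 and 25.9 CPM at day 3, 87.8 and 91 CPM at day 7 and 185 and 179 CPM at day 21. No library of either line group passed 1.06 CPM, and the YAP5SA libraries of each later day stood above those of day 0. Itgb6 was 29.7-fold higher at day 3 (log2 change 4.89, SE 0.21, adjusted p = 4.49e-16), 112-fold at day 7 (adjusted p = 1.19e-21) and 230.0-fold at day 21 (log2 change 7.85, SE 0.15, adjusted p = 1.25e-23) than at day 0. It was thus called at day 3, when Itgav was not.

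Itgb8, the other activator of latent TGF-beta, showed the opposite distribution. It had 18.5, 64.6 and 134 CPM in Non-NE libraries, against 0.676, 0.328 and 0.106 CPM in NE libraries, and 0.281 and 0.185 CPM at day 0, 0.486 and 0.643 CPM at day 3, 1.93 and 2.54 CPM at day 7 and 1.24 and 1.16 CPM at day 21. Every Non-NE library was above every other library. It was 182-fold higher in Non-NE lines (log2 change 7.51, SE 1.00, adjusted p = 0.00143), with log2 changes of 8.26 without NE replicate 1 and 6.70 without Non-NE replicate 3. At day 21 it was 5.03-fold higher than at day 0 (log2 change 2.33, SE 0.59, adjusted p = 0.00109), at a level near 1 CPM. That call ended with all 14 libraries in the fit.

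Itgb5, a vitronectin receptor subunit, had 135, 536 and 529 CPM in Non-NE libraries, against 18.1, 12.7 and 0.319 CPM in NE libraries. It had 13 and 13.8 CPM at day 0, 18.7 and 18.4 CPM at day 3, 32.1 and 36.8 CPM at day 7 and 90.1 and 104 CPM at day 21. Non-NE libraries were all above NE, with NE replicate 3 near 0, and the days rose in order. The gene was 37.5-fold higher in Non-NE lines (log2 change 5.23, SE 1.20, adjusted p = 0.0126, or 5.89 on the log2 scale without NE replicate 1) and 7.34-fold higher at day 21 than at day 0 (adjusted p = 9.15e-18). The smaller rise at day 3 (adjusted p = 0.00559) was lost without day 0 replicate 1 (adjusted p = 0.0544).

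Itgb3, the partner of alphav in vitronectin and osteopontin binding and of alphaIIb in platelets, had 3.8, 49.1 and 13.7 CPM in Non-NE libraries, against 4.06, 6.67 and 3.09 CPM in NE libraries. By day it had 6.75 and 7.13 CPM at day 0, 3.21 and 3.95 CPM at day 3, 14.6 and 12.5 CPM at day 7 and 100.3 and 92.3 CPM at day 21. The line groups overlapped through Non-NE replicate 1 and no difference was called (log2 change 2.23, SE 0.89, adjusted p = 0.084), though it was called without that library (log2 change 2.73, adjusted p = 0.0202) and with DESeq2 (adjusted p = 0.0242). It was lower at day 3 (log2 change -0.96, SE 0.20, adjusted p = 3.10e-04), higher at day 7 (adjusted p = 4.63e-06) and 14.1-fold higher at day 21 (log2 change 3.81, SE 0.12, adjusted p = 2.01e-19), each against day 0.

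Itga5, the fibronectin receptor subunit that pairs with beta1, had 189.7, 1504 and 451 CPM in Non-NE libraries, against 2.12, 5.58 and 31.8 CPM in NE libraries. It had 6.0 and 5.28 CPM at day 0, 22.6 and 31.1 CPM at day 3, 19.7 and 21.1 CPM at day 7 and 121 and 130.4 CPM at day 21. Every Non-NE library was above every NE library, although both groups spread widely, with Non-NE replicate 2 and NE replicate 3 far above their fellows. Itga5 was 52.7-fold higher in Non-NE lines (log2 change 5.72, SE 1.30, adjusted p = 0.012), with log2 changes of 7.50 without NE replicate 3 and 4.58 without Non-NE replicate 2. Against day 0 it was 4.73-fold higher at day 3 (adjusted p = 1.32e-11) and 22.6-fold at day 21 (adjusted p = 8.78e-20). Between those it was lower at day 7 than at day 3 (log2 change -0.37, SE 0.13, adjusted p = 0.0166), which was lost without day 3 replicate 2 or day 7 replicate 1 (adjusted p = 0.472 and 0.119).

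Itga9, a receptor subunit for tenascin and VCAM1, had 0.661, 70.8 and 19.1 CPM in Non-NE libraries, against 0.193, 0.875 and 1.28 CPM in NE libraries, and 0.75 and 0.463 CPM at day 0, 0.777 and 0.919 CPM at day 3, 1.02 and 1.02 CPM at day 7 and 11.3 and 12.1 CPM at day 21. Non-NE replicate 1 lay within the NE range, so the groups overlapped, while day 21 stood above every earlier day. The Non-NE difference was called (log2 change 5.22, SE 1.52, adjusted p = 0.0312) but 7 of 14 alternatives ended it. Those were each NE library left out (adjusted p = 0.0936, 0.0883 and 0.0716), Non-NE replicate 2 or 3 left out (adjusted p = 0.0878, log2 change 3.64, and adjusted p = 0.0538), limma-voom (adjusted p = 0.132) and no count filter (adjusted p = 0.0627). Without Non-NE replicate 1 the log2 change was 5.81. Itga9 was 19.3-fold higher at day 21 than at day 0 (log2 change 4.27, SE 0.28, adjusted p = 5.82e-13).

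Itga11, a collagen receptor subunit of mesenchymal cells, had 0.165, 21 and 113 CPM in Non-NE libraries, against 0, 0.109 and 0.106 CPM in NE libraries. Non-NE replicates 2 and 3 carried its counts and replicate 1 lay with the NE libraries. It was not tested in the line comparison and stayed at or under 0.484 CPM over the YAP5SA days.

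Of the other collagen receptors, Itga1 had 25.8, 5.37 and 7.32 CPM in Non-NE libraries, against 0, 0 and 0 CPM in NE libraries, at least 109-fold higher in Non-NE lines (adjusted p = 0.0048). Non-NE replicate 1 was the highest, and without it the gene was at least 61.8-fold higher and still called (adjusted p = 0.00628). It was at or near 0 over the days. The gene body of Itga1 overlaps Pelo on the same strand, which averaged 44.1 CPM in Non-NE lines and 13.3 CPM in NE lines. Itga2 lies 21 kb from Itga1 on chromosome 13. Itga2 had 0.331, 4.52 and 0.425 CPM in Non-NE libraries, against 0, 0 and 0.106 CPM in NE libraries, and 0 and 0.185 CPM at day 0, 0.0972 and 0.276 CPM at day 3, 1.93 and 0.712 CPM at day 7 and 6.86 and 5.23 CPM at day 21. Day 21 stood above the earlier days, and against day 0 it gave a ratio of counts of 65 (95% counting interval 17.6 to 542) (adjusted p = 1.19e-09). Its fitted log2 change was 4.96 without day 0 replicate 1 and 8.98 without day 0 replicate 2. Itga10 had 1.16, 3.54 and 4.88 CPM in Non-NE libraries, against 3.86, 1.31 and 3.83 CPM in NE libraries, overlapped between groups and was not called in the line comparison or against day 0 at any day.

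Itga2b, the alphaIIb subunit of platelets, had 11.6, 5.01 and 19.3 CPM in Non-NE libraries, against 1.06, 1.2 and 3.19 CPM in NE libraries, and was higher in Non-NE lines (log2 change 2.67, SE 0.70, adjusted p = 0.0206). That call ended without NE replicate 1, NE replicate 2 or Non-NE replicate 3 (adjusted p = 0.071, 0.0712 and 0.0666), and the log2 change was 3.36 without NE replicate 3. The 5 platelet markers summed to 0.244 to 4.30 CPM in Non-NE libraries with Gp9 at 0, against 3.48 to 8.75 CPM in NE libraries with Pf4 and Ppbp at 0. Itga4, which binds VCAM1 and fibronectin, had 0, 0.366 and 0 CPM in Non-NE libraries, against 17.3, 1.53 and 0.745 CPM in NE libraries, so NE replicate 1 carried most of its counts. At day 21 it was lower than at day 0, with 1.62 and 0.969 CPM at day 21 and 1.87 and 2.87 CPM at day 0 (log2 change -0.85, SE 0.36, adjusted p = 0.0365), which was lost without day 0 replicate 2 (adjusted p = 0.334), without day 21 replicate 2 (adjusted p = 0.266) and with DESeq2 (adjusted p = 0.143).

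Itgb7, a lymphocyte beta subunit, had 9.09, 0.488 and 2.76 CPM in Non-NE libraries, against 0, 0.109 and 0.319 CPM in NE libraries, and was not tested in the line comparison. Itgae, its partner for E-cadherin, had 2.15, 1.95 and 2.02 CPM in Non-NE libraries, against 0.772, 0.875 and 1.49 CPM in NE libraries, and was not called (log2 change 0.91, SE 0.45, adjusted p = 0.142). For both genes every Non-NE library was above every NE library. Itga8, a nephronectin receptor subunit, had 0.165, 0.611 and 2.76 CPM in Non-NE libraries, against 0, 0 and 0 CPM in NE libraries. The leukocyte subunits Itgal, Itgam, Itgax, Itgad, Itgb2 and Itgb2l stayed at or under 1.06 CPM in every library. The 9 leukocyte markers summed to 7.11 to 12.4 CPM in Non-NE libraries, against 40.8 to 48.9 CPM in NE libraries, and to 115 to 139 CPM at day 21, against 48.7 to 51.8 CPM at day 0. These markers did not move together. Csf1r, the receptor of a macrophage growth factor, had 103 and 126 CPM at day 21, against 0 and 0 CPM at day 0 (adjusted p = 2.80e-20), and made up most of the sum at day 21. Coro1a was lower, with 2.67 and 3.68 CPM at day 21, against 41.5 and 46 CPM at day 0 (adjusted p = 7.15e-17), as was Laptm5, with 0.667 and 0.484 CPM at day 21, against 4.59 and 3.98 CPM at day 0 (adjusted p = 2.0e-07). Ptprc, the pan-leukocyte marker, was at 0 in every YAP5SA library, as was Tyrobp. Itgbl1, the integrin-like gene that is no subunit, had 1.16, 0 and 0.318 CPM in Non-NE libraries, against 16.3, 22.5 and 8.63 CPM in NE libraries, and 23.1 and 23.9 CPM at day 0, 7.0 and 7.81 CPM at day 3, 2.03 and 3.15 CPM at day 7 and 4.67 and 3.39 CPM at day 21.

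In the line comparison, 14 members were called higher in Non-NE than in NE lines and 1, Itga6, lower, of 21 tested (edgeR quasi-likelihood test, Benjamini-Hochberg adjusted p under 0.05). Of all 12966 genes tested, 42.8% were called, 20% higher and 22.8% lower. The median log2 change was 2.81 over the members tested and -0.02 over all genes tested. A member enters the test by being high enough in some group, so the 21 are not all 38 and their count is a description. In this comparison 9 integrins and 5 laminins were higher. With all 14 libraries in the fit, 24 members were called, the same 15 and Itga4, Itga7, Itga11, Itgae, Itgb3, Itga2, Itgb7, Lamb3 and Lama3.

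In the YAP5SA line, 13 members were higher and 4 lower at day 3 than at day 0, of 26 tested, against 48.6% of 13996 genes called, 26.2% higher and 22.4% lower. At day 7, 20 were higher and 2 lower than at day 0 (71.0% of all genes called, 37.2% higher and 33.8% lower). At day 21, 22 were higher and 1 lower than at day 0 (71.7% of all genes called, 37.7% higher and 34.0% lower), and all 9 laminins tested were higher, of 11 listed. The median log2 change at day 21 was 3.63 over the members tested, against 0.02 over all genes. These day comparisons share the day 0 libraries. The series holds no uninduced cells at days 3, 7 and 21, so the part of time in culture was not tested. Step by step, 17 members were higher and 1 lower at day 7 than at day 3 (55.6% of all genes called, 29.5% higher and 26.1% lower), and 14 were higher and 4 lower at day 21 than at day 7 (50.3% of all genes called, 26.1% higher and 24.2% lower). Lower were Itga6, Itga7, Itgb3 and Lamb1 at day 3, Itga7 and Lamb1 at day 7 and Itga4 at day 21, each against day 0. Lower were also Itga5 at day 7 against day 3, and, among others, Itga4, Itgb8 and Lamc3 at day 21 against day 7. The Itgb8 call at day 21 against day 7 (log2 change -0.88, SE 0.36, adjusted p = 0.0458) ended with any 1 of the 8 libraries left out, for instance without day 7 replicate 2 (adjusted p = 0.283). That of Itga4 ended without either day 7 library or day 21 replicate 2 (adjusted p = 0.126, 0.122 and 0.261). Both calls ended with DESeq2 (adjusted p = 0.281 for Itgb8 and 0.163 for Itga4) and with library totals (adjusted p = 0.0622 and 0.0549), and that of Itgb8 with limma-voom and with no count filter (adjusted p = 0.0523 and 0.0705). Fitted with all 14 libraries, which spread more, 7 members were called at day 3, 11 at day 7 and 16 at day 21 against day 0, 7 at day 7 against day 3, and 1, Lama3, at day 21 against day 7. All of these were called in the fit of the 8 YAP5SA libraries as well. Itgb6, Itgb4, Lamc1, Lamb3, Lamb2 and Lama3 were among the 7 at day 3. With all 14 libraries, calls lost at day 3 included those of Itga3, Itga5, Itgb3, Itgb5 and Lama5. At day 7 they included Itgav and Itgb3, and at day 21 Lama4 and Itga4, each against day 0. Scaling by library totals in place of TMM moved the median log2 change of all genes to -0.27 in the line comparison, with 1929 genes higher and 3756 lower, against 2594 higher and 2960 lower with TMM. It moved that median to -0.17 for day 7 and -0.12 for day 21 against day 0, with 4149 genes higher and 6115 lower at day 7 (5208 and 4724 with TMM) and 4466 higher and 5761 lower at day 21 (5273 and 4759 with TMM), and to -0.12 for day 7 against day 3, with 3140 higher and 5078 lower (4128 and 3657 with TMM).

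Per kilobase of exon, which allows levels of different genes to be compared, the make-up of the families differed between groups. Itga5 supplied 45% ± 14.5 of the summed alpha subunit level in Non-NE lines (SD, n = 3), against 6.66% ± 8.21 in NE lines (SD, n = 3). Itga3 supplied 30.8% ± 5.23 in Non-NE lines, against 61.3% ± 8.52 in NE lines, and 68.8% ± 1.45 at day 0, 82.8% ± 0.0597 at day 3, 92.9% ± 0.67 at day 7 and 86% ± 1.37 at day 21 (SD, n = 2 each). The summed alpha subunit level was 281 ± 196 CPM per kilobase in Non-NE lines, against 40.5 ± 1.02 in NE lines, and 40.8 ± 1.07 at day 0 and 396 ± 48 at day 21. The sum in Non-NE lines was chiefly that of Itga5, Itga3 and Itgav, and the sum in day 21 cells chiefly that of Itga3. In the order of levels within Non-NE lines, Itga5 and Itga3 overlapped between libraries, as did Itga3 and Itgav.

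For the beta subunits, Itgb1 supplied 81% ± 6.32 in Non-NE lines, against 97.2% ± 2.08 in NE lines, and 78% ± 1.71 at day 21. The rest was mainly Itgb5 in Non-NE lines (17% ± 5.94) and Itgb5, Itgb6 and Itgb3 at day 21 (8.42% ± 1.32, 7.86% ± 0.278 and 5.01% ± 0.0157). Among laminin beta chains, Lamb2 supplied 62.1% ± 7.88 and Lamb1 36.7% ± 7.97 in Non-NE lines, whereas Lamb1 supplied 97% ± 0.678 at day 0 and Lamb3 61.2% ± 1.17 at day 3, 80.2% ± 0.241 at day 7 and 75.8% ± 0.739 at day 21. The leading beta chain had thus changed by day 3. Of the alpha chains, Lama5 made 98.6% ± 0.86 at day 0, and Lama3 made 15.5% ± 0.324 at day 7 and 26.9% ± 3.84 at day 21. In Non-NE lines Lama5 and Lama4 made 52.5% ± 31.7 and 39.5% ± 25.6, and their order differed between libraries. Lamb2 and Lamb1 also overlapped between Non-NE libraries. These shares depend on the length used. The exon union spans 9917 bases for Lamb1 and 6082 for Lamb2, the longest transcript 5784 and 5629. With means of 264 and 269 CPM in Non-NE lines, the lead of Lamb2 over Lamb1 thus rests largely on the exon union. For Lama4 the exon union spans 12068 bases and the longest transcript 6046.

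**Figure D4:**
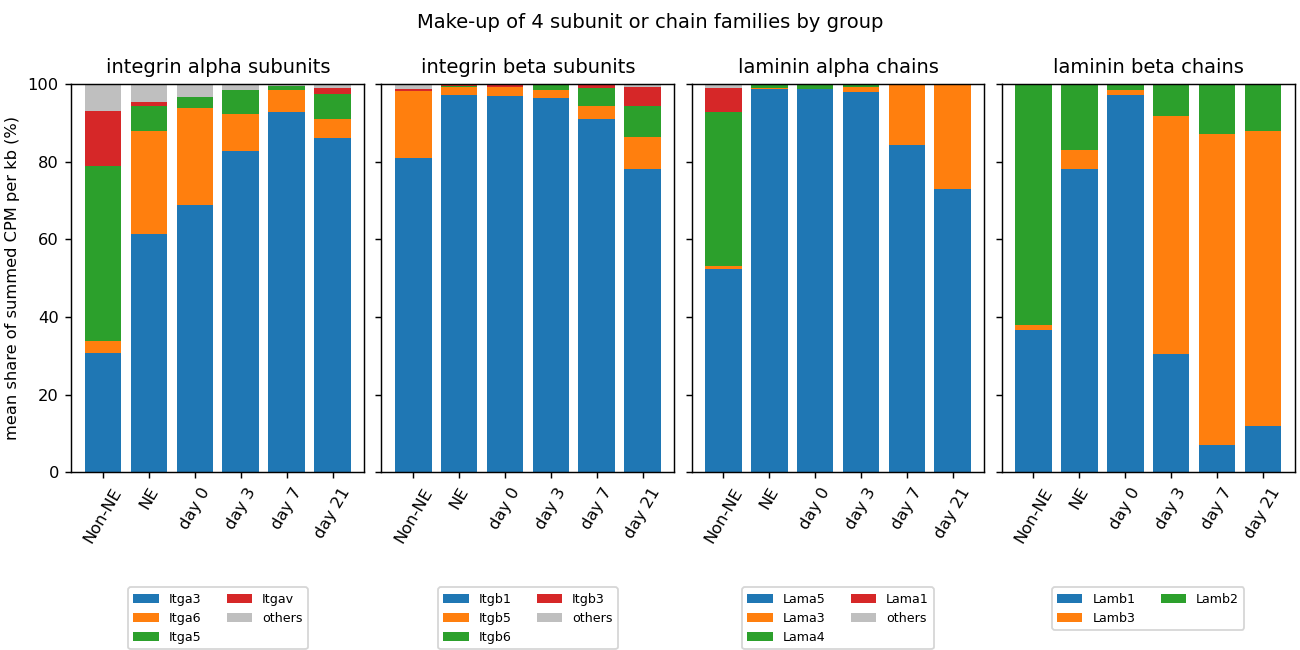
Mean share of each gene in the summed level (CPM per kilobase) of its family (integrin alpha, integrin beta, laminin alpha, laminin beta), in percent, for the 6 groups; genes that never reach 5% are pooled as others. Itga5 makes the largest share of the alpha subunits in Non-NE lines and Itga3 in all other groups, and Lamb3 makes most of the laminin beta chains from day 3 on.

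Set directly against Non-NE lines, day 21 cells had 9 members higher and 10 lower of 30 tested, with 53.0% of 14829 genes called, 29.7% higher and 23.3% lower. These groups also differ by the alleles Rosa26rtTA and Tet-onYAP5SA and may differ in line of origin. The part of these in the differences was not tested. Lama3 was 213-fold higher at day 21 (log2 change 7.73, SE 0.49, adjusted p = 8.54e-07), Itgb6 681-fold (log2 change 9.41, SE 0.51, adjusted p = 1.12e-07) and Lamb3 72.2-fold (adjusted p = 4.83e-05). Itgb4 was 22.6-fold higher (adjusted p = 1.49e-05), Itga3 4.24-fold (adjusted p = 6.92e-04), Itga6 4.21-fold (adjusted p = 6.02e-04) and Itgb3 4.32-fold (adjusted p = 0.0245). The ratio of Lamc3 counts was 27.8 (95% counting interval 7.31 to 236) (adjusted p = 6.06e-04). Non-NE replicate 2 set part of these sizes: without it the log2 change was 11.18 for Itgb6, 7.57 for Lamb3 and 3.41 for Itgb3. Without Non-NE replicate 3 it was 8.71 for Itgb6 and 8.42 for Lama3, and without Non-NE replicate 1 it was 2.71 for Itga6. The Itgb3 call ended without Non-NE replicate 3 (adjusted p = 0.0718) or either day 21 library (adjusted p = 0.0914 and 0.0752).

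Lower at day 21 than in Non-NE lines were Itgb8 (59.9-fold, log2 change -5.90, SE 0.84, adjusted p = 1.84e-04), Lama4 (49.5-fold, log2 change -5.63, SE 0.79, adjusted p = 1.68e-04), Lamb2 (3.69-fold, adjusted p = 0.00824) and Itgb1 (1.97-fold, adjusted p = 0.0156). Lama1 was at least 65.7-fold lower (adjusted p = 4.90e-04). Itga1 (adjusted p = 0.00937), Itga11 (adjusted p = 0.00996), Itgae (adjusted p = 0.0194), Itgb7 (adjusted p = 0.0378) and Itgav (log2 change -2.66, SE 0.99, adjusted p = 0.0422) were the others. Of these, Itgb1 lost the call without either day 21 library (adjusted p = 0.0652 and 0.108), Lamb2 without day 21 replicate 1 (adjusted p = 0.0892), and Itgav under 13 of 21 alternatives, among them without any 1 of the 8 YAP5SA libraries and without Non-NE replicate 2 or 3 (adjusted p = 0.0826 and 0.053). Itga1, Itga11, Itgae and Itgb7 lost it without day 21 replicate 2 (adjusted p = 0.0545, 0.066, 0.0989 and 0.215). Itga11, Itgae and Itgb7 also lost it without day 21 replicate 1 (adjusted p = 0.0849, 0.137 and 0.107), and Itgb7 without either day 0 or day 7 library. Without Non-NE replicate 3 the log2 change of Itgb8 was -5.12. Lamc1 was not called between day 21 and Non-NE lines (log2 change 0.35, SE 0.18, adjusted p = 0.124), nor were Lama5 (adjusted p = 0.0502), Itga5 (adjusted p = 0.0551) and Itgb5 (adjusted p = 0.0723). Lama5 was called without NE replicate 2 (adjusted p = 0.04), with DESeq2 (adjusted p = 0.0117), with limma-voom (adjusted p = 0.0104) and with library totals (adjusted p = 0.0343). Lamb1, not called here (adjusted p = 0.204), was called as lower without NE replicate 2 (adjusted p = 0.0119). Itga5 was called with DESeq2 and limma-voom (adjusted p = 0.0325 and 0.0307), Itgb5 with limma-voom (adjusted p = 0.0401) and Lamc1 with library totals (adjusted p = 0.0217). Calls that ended were those of Itga1 with DESeq2 (adjusted p = 0.272), Itga11 and Itgb7 with limma-voom (adjusted p = 0.165 and 0.0809) and Itgae with DESeq2 or no count filter (adjusted p = 0.0666 and 0.0541). With either day 21 library left out 12 members were called, against 19 with both, while the genes called in all were 5685 without day 21 replicate 1 and 5602 without day 21 replicate 2, against 7859 with both.

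Whether a member differed by another amount at day 21 against day 0 than in Non-NE against NE lines was tested as the difference of the 2 log2 changes, (day 21 minus day 0) minus (Non-NE minus NE). It was positive and called for 8 members and negative and called for 3, of 30 tested, against 31.0% of 14829 genes called, 20.6% positive and 10.4% negative. The positive ones included Lama3, Itgb6, Lamb3, Itgb4, Lama5, Itga6 and Itga3, with differences of 1.91 (SE 0.52) for Itga3 to 9.28 (SE 0.84) for Itgb6, and more for Lama3, whose size rests on a day 0 group at 0. The negative ones were Itgb8 (-5.24, SE 1.62), Lama4 (-4.83, SE 1.23) and Lama1. For Lamc1 the difference was 0.32 (SE 0.26, adjusted p = 0.394) and for Lamb2 -0.81 (SE 1.24, adjusted p = 0.668), which were not called. Since NE replicate 2 and day 0 replicate 1 share reads, the difference was refitted without each. Without NE replicate 2, 12 members and 4864 genes in all were called, and without day 0 replicate 1, 5 members and 2954 genes, against 11 and 4597 with both. Those gained without NE replicate 2 were Lamb1, Itga7 and Itga4 (adjusted p = 2.16e-04, 0.0162 and 0.0498). Itgb6, Itga6, Itgb4 and Lama3 kept the call under all 21 alternatives. Without Non-NE replicate 2 the difference was 11.05 for Itgb6, 7.34 for Lamb3 and 5.22 for Lama5. Without Non-NE replicate 3 it was 8.59 for Itgb6 and -4.45 for Itgb8, and without Non-NE replicate 1 it was 2.79 for Itga6. Without NE replicate 1 it was -6.01 for Itgb8 and -4.23 for Lama4, and without NE replicate 3 it was -6.04 for Lama4 and 2.73 for Lama5.

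The Lamb3 call ended without any 1 of the NE, day 0, day 3, day 7 or day 21 libraries (without NE replicate 2, adjusted p = 0.121) and without Non-NE replicate 3 (adjusted p = 0.0646). The Lama5 call ended without any 1 of the 8 YAP5SA libraries, and without NE replicate 1, NE replicate 3 or Non-NE replicate 1 (adjusted p = 0.051, 0.0977 and 0.0708). With no count filter the Lamb3 and Lama5 calls also ended (adjusted p = 0.0933 and 0.0968), and with limma-voom that of Itgb8 did (adjusted p = 0.132). That of Itga3 ended without either day 0 library or day 21 replicate 2 (adjusted p = 0.0731, 0.0643 and 0.0667). That of Lama4 ended without day 0 replicate 1 (adjusted p = 0.131), and that of Itgb8 without NE replicate 2 or 3 (adjusted p = 0.0592 and 0.06) or any 1 of the day 0 and day 21 libraries. The Lama1 call ended with any 1 of 7 libraries left out, including day 0 replicate 1 (adjusted p = 1).

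**Figure D5:**
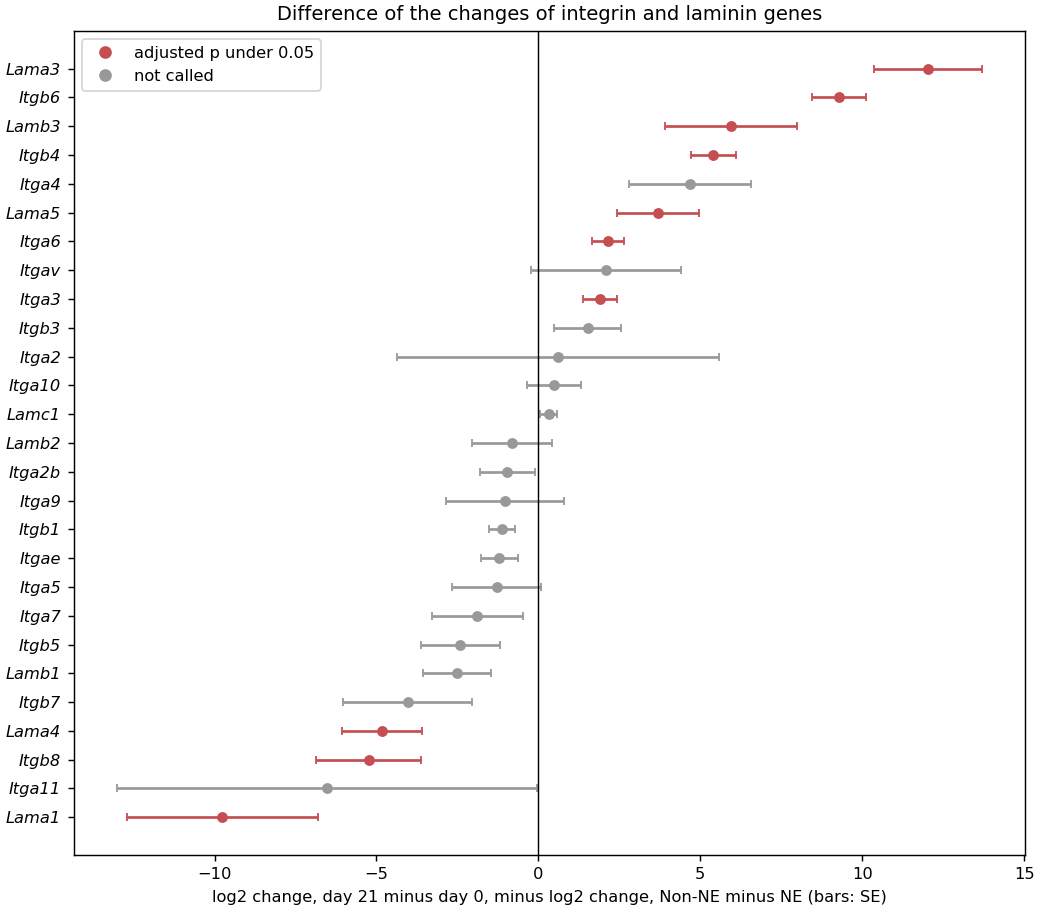
Difference of the log2 changes, (day 21 minus day 0) minus (Non-NE minus NE), for 27 tested members (dots, with SE as bars), in red where the adjusted p was under 0.05; Itga1 and Lamc3, at 0 in both NE and day 0, have no estimate and are left out. Lama3 and Itgb6 lie farthest to the right at 12.03 and 9.28, and Lama1, Itgb8 and Lama4 lie to the left of 0 among those called. The dots and bars of Lama3 and Lama1 depend on the prior count of the fit.

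The genes that work with integrins and laminins were read from lists, chosen as these members were with earlier results of the data known. Their counts stand against 20% of all genes higher and 22.8% lower in Non-NE lines, and 37.7% higher and 34.0% lower at day 21. Of the activators and adaptors that link integrins to actin, 17 of 22 tested were higher and 0 lower in Non-NE than in NE lines, with a median log2 change of 1.7, and 22 of 24 were higher and 2 lower at day 21 than at day 0, with a median of 1.47. Flna, the actin crosslinker filamin A, had 2487, 4556 and 2531 CPM in Non-NE libraries, against 147, 69 and 117 CPM in NE libraries (log2 change 4.80, SE 0.44, adjusted p = 2.81e-04). It had 611 and 665 CPM at day 21, against 70.3 and 73.7 CPM at day 0 (log2 change 3.17, SE 0.082, adjusted p = 2.70e-21). Zyx, the focal adhesion protein zyxin, had 489.9, 782 and 549 CPM in Non-NE libraries, against 52.8, 29.7 and 38.7 CPM in NE libraries (adjusted p = 1.74e-04). Tns1, tensin 1, had 18.5, 65.6 and 116 CPM in Non-NE libraries, against 0.579, 0 and 1.92 CPM in NE libraries (adjusted p = 0.00558), and 305 and 373 CPM at day 21, against 0.0937 and 0 CPM at day 0 (adjusted p = 9.42e-24). Lims2, a partner of integrin-linked kinase, had 162 and 188 CPM at day 21, against 0.281 and 0 CPM at day 0 (adjusted p = 1.34e-16), and 0, 3.05 and 0.531 CPM in Non-NE libraries, against 0.0965, 0.328 and 0.106 CPM in NE libraries. The 2 lower at day 21 were Fermt3, the kindlin of blood cells, and Parvb, whose call ended with all 14 libraries in the fit (adjusted p = 0.402). Of the 22 higher, Bcar1, Fermt1, Itgb1bp1, Nedd9, Ptk2, Rsu1 and Sharpin lost the call in that fit as well (adjusted p = 0.0676 to 0.676). Ptk2, Nedd9 and Itgb1bp1 also lost it with library totals (adjusted p = 0.464, 0.128 and 0.124).

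Of the basement membrane partners of laminins, 7 of 13 tested were higher and 3 lower in Non-NE lines, with a median log2 change of 3.02, and 13 of 16 were higher and 3 lower at day 21 than at day 0, with a median of 4.87. The share lower in Non-NE lines was near the 22.8% of all genes. Of those higher in Non-NE lines, Col4a1, Col4a2 and Smoc1 lost the call with no count filter (adjusted p = 0.0743, 0.0564 and 0.0586). They also lost it with some single libraries left out, as Pxdn did without NE replicate 1 (adjusted p = 0.0532). Hspg2, the core protein of perlecan, had 825, 591 and 985 CPM in Non-NE libraries, against 3.19, 1.64 and 2.66 CPM in NE libraries (adjusted p = 2.94e-05). Nid2, nidogen 2, had 158, 10.9 and 65 CPM in Non-NE libraries, against 0.0965, 0 and 0 CPM in NE libraries (adjusted p = 0.00173). Col4a5, a collagen IV chain, was high in both settings, with 118, 153 and 127 CPM in Non-NE libraries, against 0, 0 and 0 CPM in NE libraries (at least 1287-fold, adjusted p = 7.0e-05) and 111 and 107 CPM at day 21, against 0 and 0 CPM at day 0 (at least 779-fold, adjusted p = 1.01e-21). Its partner chain Col4a3 had 585 and 578 CPM at day 21, against 0.281 and 0.185 CPM at day 0 (adjusted p = 1.14e-25), and 0.496, 1.71 and 1.17 CPM in Non-NE libraries, against 0.386, 0.328 and 0.532 CPM in NE libraries. Col4a6 had 34.2 and 29.6 CPM at day 21, against 0 and 0 CPM at day 0 (adjusted p = 4.81e-17). Col18a1 and Ntn4 were lower in both comparisons. The Col18a1 call in Non-NE lines ended without NE replicate 1 or 2, without Non-NE replicate 1 or 2 (adjusted p = 0.112, 0.0964, 0.0595 and 0.122) and with no count filter (adjusted p = 0.0832), and that at day 21 with all 14 libraries in the fit (adjusted p = 0.141).

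Of the laminin receptors that are no integrins, 4 of 9 tested were higher and 1 lower in Non-NE lines, with a median log2 change of 0.73, and 5 were higher and 2 lower of 9 at day 21, with a median of 0.58. The 7 called at day 21 are a share near the 71.7% of all genes. Of these, Sdc1 and Sdc4 lost the call with all 14 libraries in the fit (adjusted p = 0.459 and 0.222). So did the 2 lower ones, Sdc3 and Sgcb (adjusted p = 0.400 and 0.191). In Non-NE lines the Sgcb call ended with library totals (adjusted p = 0.119) and with some single libraries left out. That of Rpsa ended without NE replicate 1 (adjusted p = 0.0537). Bcam, a receptor for Lama5, had 0, 1.1 and 0 CPM in Non-NE libraries, against 67.1, 72.6 and 50.7 CPM in NE libraries (log2 change -7.38, SE 1.01, adjusted p = 0.00162), with log2 changes of -12.15 without Non-NE replicate 2, the one Non-NE library with counts, and -6.73 without Non-NE replicate 3. It had 549.6 and 674 CPM at day 21, against 74.1 and 73.7 CPM at day 0 (log2 change 3.07, SE 0.11, adjusted p = 1.11e-18). Bcam was thus lower in Non-NE lines and higher at day 21. Dag1, dystroglycan, had 438 and 481 CPM at day 21, against 113 and 121 CPM at day 0 (adjusted p = 1.21e-17). The syndecan Sdc2 had 209, 159 and 621 CPM in Non-NE libraries, against 12.3, 16.2 and 36.4 CPM in NE libraries (adjusted p = 0.00472), and 60.7 and 58 CPM at day 21, against 15.7 and 16.6 CPM at day 0 (adjusted p = 7.02e-14). Sdc1 had 152, 403 and 638 CPM in Non-NE libraries, against 46.9, 94.6 and 42 CPM in NE libraries (adjusted p = 0.0109).

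The partners of alpha6 beta4 in hemidesmosomes were higher for 4 of 5 tested in Non-NE lines, with a median log2 change of 2.06, and for 3 of 4 at day 21, with a median of 1.11. The share called at day 21 was near the 71.7% of all genes. Krt14, a basal keratin, had 48.8 and 45.3 CPM at day 21, against 0 and 0 CPM at day 0 (at least 337-fold, adjusted p = 1.95e-18). The tetraspanin Cd151, a partner of alpha3 and alpha6 integrins, was higher in both settings, with 152, 145 and 161 CPM in Non-NE libraries, against 70.2, 65.7 and 69.5 CPM in NE libraries (adjusted p = 0.00169) and 209 and 206 CPM at day 21, against 65.2 and 64.3 CPM at day 0 (adjusted p = 2.18e-16). Plec, plectin, had 898, 799 and 908 CPM in Non-NE libraries, against 149.8, 179 and 50.9 CPM in NE libraries (adjusted p = 0.00359). Dst, dystonin, had 287, 657 and 471 CPM in Non-NE libraries, against 165, 183 and 156 CPM in NE libraries (adjusted p = 0.0097), and 228 and 275 CPM at day 21, against 184 and 174 CPM at day 0 (adjusted p = 4.46e-06). With all 14 libraries in the fit the Dst call at day 21 ended (adjusted p = 0.221). The Krt14 call in Non-NE lines ended with any 1 library but NE replicate 3 left out, for instance without NE replicate 1 (adjusted p = 0.097), with library totals and with no count filter (adjusted p = 0.0507 and 0.0597). Col17a1 stayed under 1 CPM in every library.

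Ligands of the RGD-binding, alpha4 and alpha9 integrins were higher for 13 of 16 tested and lower for 1 in Non-NE lines, with a median log2 change of 9.15, and higher for 11 of 13 and lower for 1 at day 21, with a median of 5.04 (of all genes, 20% higher in Non-NE lines and 37.7% at day 21). Fn1, fibronectin, had 4097, 13450.3 and 13741 CPM in Non-NE libraries, against 1.74, 0.219 and 1.81 CPM in NE libraries (log2 change 12.96, SE 1.05, adjusted p = 1.94e-04). Postn, periostin, had 21.7, 225 and 348 CPM in Non-NE libraries, against 0, 0 and 0.106 CPM in NE libraries (adjusted p = 0.00144). Ctgf, a matricellular target of YAP, had 193, 2803 and 185 CPM in Non-NE libraries, against 0, 0 and 0 CPM in NE libraries (at least 10528-fold, adjusted p = 0.00814; at least 1811-fold without Non-NE replicate 2 and 16313-fold without Non-NE replicate 3), and 529 and 532 CPM at day 21, against 0 and 0 CPM at day 0 (at least 3797-fold, adjusted p = 5.67e-25). Its relative Cyr61 had 902 and 1078 CPM at day 21, against 0.187 and 0.185 CPM at day 0 (adjusted p = 1.14e-24). Tnc, tenascin-C, had 97 and 91.1 CPM at day 21, against 0.0937 and 0 CPM at day 0 (adjusted p = 1.78e-21).

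Ligands of leukocyte integrins were higher for 1 of 5 tested and lower for 3 in Non-NE lines, with a median log2 change of -0.94, and higher for 5 of 6 and lower for 0 at day 21, with a median of 1.18. The share higher in Non-NE lines was that of all genes, 20%. Icam1, the ligand of beta2 integrins, had 299 and 327 CPM at day 21, against 1.03 and 1.57 CPM at day 0 (log2 change 7.92, SE 0.17, adjusted p = 4.87e-23). Cdh1, E-cadherin, had 0.826, 8.3 and 5.63 CPM in Non-NE libraries, against 939, 869 and 1362 CPM in NE libraries (adjusted p = 5.27e-04), and 1250.1 and 1252 CPM at day 21, against 867 and 901 CPM at day 0 (adjusted p = 1.04e-06). F11r had 67.9, 103 and 78.7 CPM in Non-NE libraries, against 183, 176 and 107 CPM in NE libraries (adjusted p = 0.0298), and 423 and 437 CPM at day 21, against 177 and 169 CPM at day 0 (adjusted p = 1.09e-13). Jam3 had 11.1, 27.6 and 33.5 CPM in Non-NE libraries, against 2.03, 0.328 and 5.01 CPM in NE libraries (adjusted p = 0.0255). The Non-NE call of F11r ended when NE replicate 1, NE replicate 2, Non-NE replicate 1 or Non-NE replicate 3 was left out (adjusted p = 0.0944, 0.0905, 0.0795 and 0.0869), and that of Jam3 when NE replicate 1, Non-NE replicate 2 or Non-NE replicate 3 was (adjusted p = 0.0832, 0.0594 and 0.0714). With all 14 libraries in the fit the Cdh1 call at day 21 ended (adjusted p = 0.485).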

How the data were processed

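RNA of 14 libraries was measured by poly(A)-selected RNA sequencing. The authors deposited 1 table of whole-number read counts per gene and library. STAR 2.4.2, featureCounts and mm10 are named, with no further role, per the submitters' processing notes. The annotation and the strand setting are not given in the sources used here. Library totals were 6730816 to 10659524 counts, so that 3 counts over a group, the limit a count of 0 allows, stood for 0.104 to 0.152 CPM. Intervals of count ratios and these limits cover counting error only.

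Groups followed the sample titles. CPM used TMM factors over all 14 libraries, and per-kilobase levels used the union of exons in the GRCm38 annotation. Tests were edgeR 4.0.16 quasi-likelihood tests in R 4.3.3 with filterByExpr and Benjamini-Hochberg adjustment over all genes tested, called at 0.05: Non-NE against NE on 6 libraries, the days on 8, and day 21 against Non-NE and the difference of changes on 14. Common biological coefficients of variation were 0.399, 0.0548 and 0.293 in these 3 fits. The SE given is the log2 change divided by the square root of the F statistic of its test. It thus depends on the prior count where a group was at or near 0. Alternatives were DESeq2 1.42.0 (size factors and test), limma 3.58.1 (voom), library totals, other count filters, a replicate block, all 14 libraries in the fit and each library left out.

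The members and the lists were chosen with earlier results of these data known. Values in every library are given for members with a group mean of at least 20 CPM, and single values from 1 CPM. Of each list, the 3 largest called changes are named where the higher group reached 20 CPM; other list genes named were chosen after their values were seen. One member, which stays in the counts and medians over members, and 1 allele that all groups carry are not reported here.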

Additional observations from a re-analysis of the deposited data

Results flagged for a closer look

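For members including those named here, the change at day 21 against day 0 differed from the change in Non-NE against NE lines by the test of the difference itself (edgeR quasi-likelihood test over all genes, adjusted p under 0.05). The log2 differences were 12.03 for Lama3, 9.28 for Itgb6, 5.95 for Lamb3, 5.39 for Itgb4, 3.69 for Lama5, 2.15 for Itga6 and 1.91 for Itga3, all in the direction of day 21. In the direction of Non-NE they were -9.76 for Lama1, -5.24 for Itgb8 and -4.83 for Lama4. Lama3 had 0 counts at day 0, and Lama1 had 1 count in NE libraries, 1 at day 0 and 0 at day 21, so both of these sizes depend on the prior count of the fit and are no measure of a fold. Over all genes tested the median difference was 0.13, or 0.30 with scaling by library totals.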

How the results depend on the processing

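Of 211 member tests, 143 were called, and 69 of these kept the call and direction under every alternative run; 0 called tests reversed, and 24 of the 68 uncalled ones were called in the same direction under some alternative. With all 14 libraries in the fit the members called were 24 for Non-NE against NE (15 with the 6 libraries), 7 for day 3 (17), 11 for day 7 (22), 7 for day 7 against day 3 (18) and 1 for day 21 against day 7 (18), and the genes called in all were 8997 (5554), 1041 (6804), 4589 (9932), 1281 (7785) and 515 (7042), with 4586 (10032) for day 21 against day 0; the biological coefficient of variation in that fit was 0.293, against 0.0548 for the days and 0.399 for the lines. With 1 library left out, members called ranged from 12 to 23 for day 21 against Non-NE (19 with all) and from 5 to 12 for the difference of changes (11 with all), where all genes called were 2954 and 2829 without day 0 replicate 1 and 2 (4597 with all). The cause was not tested.

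Uncalled values changed sign in these cases (log2 changes, with the range over single libraries left out). Lama5, Non-NE against NE, ranged from -0.88 to 1.62, lowest without Non-NE replicate 2. At day 7 against day 3, Itgb1 was -0.11 with library totals. At day 21 against day 7, Itgb1 was 0.00674 with DESeq2 size factors and test, 0.054 with library totals and -0.093 to 0.063 with a library left out. With library totals and with a library left out, Itga6 was 0.027 and -0.10 to 0.036, Itga3 0.023 and -0.19 to 0.091, and Lama4 0.039 and -0.18 to 0.11. At day 21 against Non-NE, Itga9 was 0.073 with the replicate block and -1.95 to 0.20 with a library left out. In the difference of changes Itgav was -0.40 with limma-voom and -2.47 to 2.63 with a library left out, and Itga9 0.017 and -1.61 to 0.55.

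Library totals moved the median of all genes to 0.24 for day 21 against Non-NE (5070 higher and 2682 lower, 4405 and 3454 with TMM) and 0.30 for the difference (3478 and 1033, 3054 and 1543 with TMM), and the split for day 21 against day 7 to 4221 and 2858 (3654 and 3388). Same-numbered libraries correlated by -0.103 to 0.0466. For the days this cannot show whether equal numbers pair libraries, since 2 libraries per day give a single value with its sign turned. In the lines same-numbered values were -0.0138 to 0.0466, against -0.0524 to 0.0163 for other pairs. Members called with a replicate block were 16, 17, 22, 23, 18, 17, 23 and 12, against 15, 17, 22, 23, 18, 18, 19 and 11. The order is Non-NE against NE, days 3, 7 and 21 against day 0, day 7 against day 3, day 21 against day 7, day 21 against Non-NE and difference. With the block the calls of Itgb8 and Lama5 ended in the difference of changes (adjusted p = 0.0512 and 0.0651). The 6 members under 1 CPM in every group did not pass the count filter of any comparison; with no count filter Itgb2 was called in Non-NE against NE, Itgam at day 21 against day 0, and Itgal and Itgb2 at day 21 against Non-NE.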
